A study of Mus musculus with 96 samples.

Results

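The collagen genes are those that encode the chains of the collagen proteins. They were taken as every protein-coding row of the gene count table whose symbol had the form Col, a number, a and a number, which gave 44 of the 56748 genes of the table. The study fed mice either ad libitum (AL) or by intermittent fasting (IF) and measured poly-A RNA by sequencing in liver, muscle and cortex. The AL males were mice 1 to 8 and the IF males were mice 9 to 16. The AL females were mice 25 to 32 and the IF females were mice 33 to 40. The males were C57BL/6 mice that started their diets at 6 weeks of age and kept to them for 4 months, with a daily fast of 16 h in the IF group. The age, strain and length of diet of the females are not given in the sources used here, so sex and any other difference between the 2 sets of mice cannot be told apart.

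Collagens are proteins of the extracellular matrix in which chains wind into a triple helix. Fibrillar collagens form the fibres that give tendon, skin and connective tissue their strength, collagen IV forms the sheet of the basement membrane, collagen VI forms fine filaments around muscle fibres and other cells, and the FACIT collagens sit on the surface of fibres. In liver much of the collagen of the matrix comes from stellate cells and fibroblasts, in muscle from the fibroblasts of the connective sheaths, and in brain mostly from cells of the vessels and the meninges.

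The 95 libraries used here held 26097314 to 49838004 counted reads. In liver the libraries held 26097314 to 44763638 in AL males, 31458822 to 40826057 in IF males, 29779699 to 41530063 in AL females and 26693099 to 37906982 in IF females. In muscle they held 29181553 to 46889676 in AL males, 28319147 to 45019446 in IF males, 30141767 to 49838004 in AL females and 36331661 to 44165322 in IF females. In cortex they held 32373437 to 39314534 in AL males, 31956366 to 36239203 in IF males, 31231970 to 39411095 in AL females and 33615626 to 40235336 in IF females. These ranges overlapped between the diets in each tissue and sex. Marker genes fitted the labelled tissues. Alb was at 23146 to 69838 CPM (the count of a gene scaled to the library total) in liver and at 3.31 CPM or less in muscle and cortex, Ckm was at 12688 CPM or more in muscle, and Snap25 was at 1520.0 CPM or more in cortex. The cortex library labelled male AL mouse 1 went against its label: it held 213 CPM of Xist and no read of Ddx3y or Uty, while the other male libraries held at most 0.612 CPM of Xist and at least 25.1 CPM of Ddx3y. The rule that defines the gene group leaves that library out, so the AL male cortex group had 7 mice. Further, 6 cortex libraries stood apart in Ttr, a transcript of the choroid plexus: those of male AL mice 2 and 4, male IF mice 11 and 14 and female IF mice 34 and 36 held 563 to 4269 CPM, against 2.84 to 118 CPM in the other 25. Col9a3, a chain of the FACIT collagen IX, was at 15.4 to 55.4 CPM in these 6 and at most 17.8 CPM in the others, and Col8a2, a chain of the network collagen VIII, was at 1.37 to 12.7 CPM in these 6 and at most 3.39 CPM in the others. Of the 6, AL mouse 2 lay within the range of the others for both genes.

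Within AL males the summed collagen transcripts were highest in liver. The 44 genes together took 1247 to 2079.9 CPM (median 1599) in liver, 597 to 894 CPM (median 742) in muscle and 464 to 601 CPM (median 547) in cortex. By this share of the library total, liver lay above both other tissues in every AL male. In AL females the sums were 869 to 1265 CPM (median 1087) in liver, 554 to 783 CPM (median 634) in muscle and 393 to 640.2 CPM (median 481) in cortex. The liver sum rested on few genes, since Col18a1 alone made up 53.1% of it in AL males and 74.5% in AL females, and Col18a1, Col5a3 and Col27a1 together made up 88.5% in AL males. In muscle the leading gene by CPM, Col3a1, took 13.7% and in cortex Col6a1 took 21.3% in AL males.

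**Figure D1:**
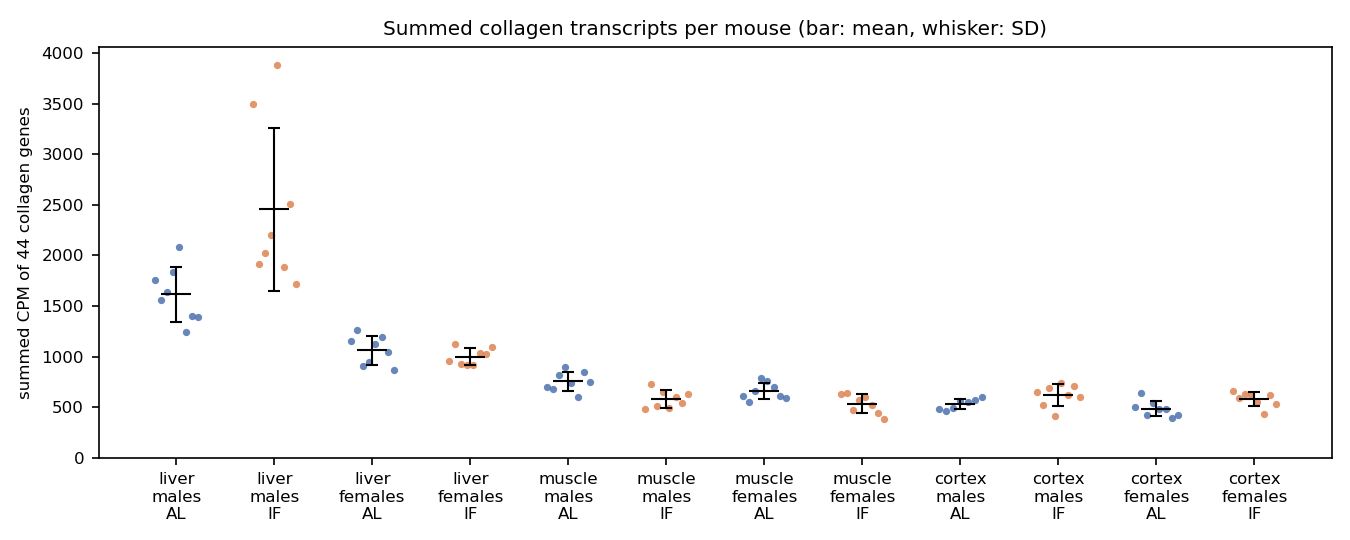
Summed CPM of the 44 collagen genes (vertical axis) in each mouse of the 12 groups of tissue, sex and diet (horizontal axis), where points are mice, bars are means and whiskers are SD. In liver, IF males reached 3887 CPM while all females stayed at or below 1265 CPM.

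Per length, the order of the chains differed by tissue. The length is the deposited gene length, and the order of chains within a tissue depends on it. In AL male liver Col18a1, which carries endostatin at its end and lies in basement membranes, stood at 122 ± 16.6 FPKM (SD, n = 8). Next came the fibrillar chains Col5a3 at 47.8 ± 13.7 FPKM and Col27a1 at 18.9 ± 5.01 FPKM, then Col6a1 at 2.84 ± 0.819 FPKM and Col3a1 at 2.65 ± 0.495 FPKM, and the last pair did not differ beyond their spread. In AL male muscle the basement membrane chains Col4a2 at 14.7 ± 1.701 FPKM and Col4a1 at 10.9 ± 1.77 FPKM stood beside Col6a1 at 12.4 ± 2.16 FPKM, Col3a1 at 10.5 ± 1.94 FPKM and Col1a1 at 7.64 ± 1.303 FPKM. Col4a2 had the highest mean in muscle. Both Col4a2 and Col6a1 lay above Col4a1 in every mouse. The means of Col6a1, Col4a1 and Col3a1 lay within 1 SD of each other, which is a spread between mice and not their order within mice. In AL male cortex Col6a1 led at 25.8 ± 8.04 FPKM, followed by Col4a2 at 11.1 ± 2.14 FPKM, Col11a2 at 5.37 ± 1.12 FPKM, Col4a1 at 5.04 ± 0.554 FPKM and Col9a3 at 4.56 ± 2.54 FPKM. The last 3 of these did not differ beyond their spread, and the spread of Col9a3 holds the libraries high in Ttr.

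Tissue was tested within AL mice, with the mouse as a term since the 3 tissues came from the same mice. The 3 comparisons of a sex share these libraries. Of 43 collagen genes tested in males, 26 were higher in muscle than in liver, against 40.3% of all genes tested, and 10 were lower, against 38.9%. Cortex was higher than liver for 22 genes, against 45.9%, and lower for 15, against 37.5%. Cortex was higher than muscle for 13 genes, against 44.8%, and lower for 19, against 35.4%. In females 29 genes were higher in muscle than in liver, against 41.2%, and 7 were lower, against 37.9%. Cortex was higher than liver in females for 26 genes, against 47.2%, and lower for 12, against 36.8%. Against muscle, female cortex was higher for 15 genes, against 45%, and lower for 20, against 35.6%. Several of these shares lie near those of all genes. The 3 tissues of a sex shared a filter on low counts, so genes could enter through a single tissue. Among those counted higher in male muscle than liver, Col11a1, Col2a1, Col19a1, Col9a2 and Col6a4 passed the filter of the diet comparison in neither tissue. Col22a1, Col26a1, Col8a1, Col28a1 and Col9a1 did not pass it in liver. The other comparisons hold such genes too, and no result about the group is drawn from the counts. The median difference of the collagen genes between muscle and liver was 1.78 on the log2 scale in males, against 0.03 over all genes tested. It was 0.86, against 0.25, for cortex against liver and -0.43, against 0.24, for cortex against muscle. These medians hold the same low genes, so no result is drawn from them.

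Single chains differed widely between the tissues. The CPM levels are scaled to the library total, while the tested differences used a further scaling between libraries (TMM). The sizes of a level difference and a tested difference between tissues therefore need not match. Col3a1, which forms fibres with collagen I, was at 78.9 to 137 CPM (median 103) in AL male muscle, 20.96 to 36.2 CPM (median 25.5) in liver and 1.61 to 2.94 CPM (median 1.87) in cortex. Muscle lay above liver and liver above cortex in every mouse, and cortex differed from muscle by -6.70 ± 0.13 (log2, SE, adjusted p = 1.95e-18). Col18a1 was at 720.3 to 1072 CPM (median 874) in liver and 7.44 to 14.3 CPM (median 8.897) in muscle, a difference of -6.25 ± 0.11 (log2, SE, adjusted p = 1.50e-19). Col5a3, a chain of the minor fibrillar collagen V, was at 213 to 464 CPM (median 314) in liver, 33.1 to 48.7 CPM (median 40.6) in muscle and 3.21 to 6.06 CPM (median 5.28) in cortex, with no overlap between the 3. Col9a3 was at 12.3 to 39.6 CPM (median 13.9) in cortex and 0 to 0.277 CPM (median 0.0863) in muscle. In male muscle alone it did not pass the filter on low counts, so no exact difference is given. The type I chains Col1a1 and Col1a2 differed between cortex and muscle by -3.81 ± 0.17 and -4.06 ± 0.23 on the log2 scale. Col10a1, the collagen of growing cartilage, passed the filter on low counts in no tissue, at a mean of at most 0.379 CPM.

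In the liver of males some collagens were higher and others lower under IF. The summed collagens were at 1247 to 2079.9 CPM (median 1599) in AL and 1717 to 3887 CPM (median 2116) in IF. These sums overlapped, and IF mouse 13 was the highest of its group. Of 32 collagen genes tested, 8 rose, against 23.5% of all 16204 genes tested, and 4 fell, against 21.1%. The first share is near that of all genes and the second is below it, so the counts are no result about the collagens as a group. The median log2 fold change of the 32 was 0.36, against 0.06 over all genes tested. Those that rose were Col13a1, Col7a1, Col27a1, Col11a2, Col18a1, Col6a1, Col4a4 and Col4a6, and those that fell were Col15a1, Col25a1, Col4a1 and Col4a2. In bulk tissue, fewer cells of a type and less RNA per cell cannot be told apart.

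The multiplexins, which link basement membranes to the matrix around them, moved in opposite directions. Col15a1 was at 6.29 to 12.2 CPM (median 11.4) in AL males and 1.39 to 3.601 CPM (median 2.0996) in IF males. The groups did not overlap, and all 8 IF mice lay below the lowest AL mouse. It fell by 2.33 on the log2 scale (SE 0.20, adjusted p = 2.67e-09). Col18a1 was at 720.3 to 1072 CPM (median 874) in AL and 1036 to 2179 CPM (median 1102) in IF. IF mice 9 and 13 were far above the rest, at 1874 and 2179 CPM, yet 7 of 8 IF mice lay above the highest AL mouse. Its log2 fold change was 0.57 ± 0.13 (log2, SE, adjusted p = 0.00132). With an erythrocyte score as covariate the value was 0.49 with an adjusted p of 0.0719.

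Among the fibrillar chains 2 of 9 tested rose, a share near the 23.5% of all genes. Col27a1, known from cartilage, was at 145 to 348 CPM (median 242) in AL and 209 to 952 CPM (median 561) in IF. All IF mice but mouse 16, the lowest, lay above the highest AL mouse, and the log2 fold change was 1.14 ± 0.22 (log2, SE, adjusted p = 3.04e-04). Col11a2, a chain of the minor fibrillar collagen XI, was at 2.57 to 8.55 CPM (median 5.57) in AL and 7.54 to 17.3 CPM (median 10.5) in IF. These groups overlapped, with all 8 IF mice above the AL median, and the log2 fold change was 0.88 ± 0.20 (log2, SE, adjusted p = 7.40e-04). The main chains of fibrous tissue did not pass the test. Their log2 fold changes were -0.04 ± 0.26 for Col1a1, 0.13 ± 0.20 for Col1a2 and -0.31 ± 0.20 for Col3a1 (SE), with adjusted p from 0.213 to 0.915. Without the library of IF mouse 9, Col3a1 was called at -0.48 with an adjusted p of 0.0399. Col5a3 was at 213 to 464 CPM (median 314) in AL and 181 to 494 CPM (median 273) in IF, which overlapped, with a log2 fold change of -0.25 ± 0.18.

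Of the 6 collagen IV genes, 2 rose, against 23.5% of all genes, and 2 fell, against 21.1%, counts too small to set them apart from all genes. The chains found in nearly all basement membranes fell: Col4a1 was at 11.8 to 18.9 CPM (median 16.02) in AL and 8.36 to 15.4 CPM (median 12.5) in IF, with a log2 fold change of -0.39 ± 0.12 (log2, SE, adjusted p = 0.0123). Its partner Col4a2 was at 13.5 to 21.7 CPM (median 17.4) in AL and 8.02 to 23.03 CPM (median 11.6) in IF, with a log2 fold change of -0.45 ± 0.16 (log2, SE, adjusted p = 0.02501). Both overlapped between the diets, and Col4a2 lost its call without the library of IF mouse 14 (-0.41, adjusted p = 0.0518) or IF mouse 15 (-0.39, adjusted p = 0.0546), and without AL mouse 2 and IF mouse 10 together (-0.39, adjusted p = 0.05905). Those that rose were the rarer chains Col4a4, by 0.86 ± 0.33, and Col4a6, by 1.71 ± 0.68 on the log2 scale, each at a mean below 3 CPM, and both lost the call with the erythrocyte score as covariate. Col6a1 of collagen VI was at 7.93 to 17.95 CPM (median 12.1) in AL and 12.3 to 35.4 CPM (median 15.1) in IF, with all 8 IF mice above the AL median and a log2 fold change of 0.55 ± 0.19 (log2, SE, adjusted p = 0.0232). Without the library of IF mouse 9 it was 0.36 with an adjusted p of 0.0933, without that of IF mouse 13 it was 0.40 with an adjusted p of 0.0828, and with the erythrocyte score as covariate it was 0.28 with an adjusted p of 0.501. Its neighbour Col6a2 had a log2 fold change of 0.38 ± 0.16 and an adjusted p of 0.0641, which became 0.0255 without AL mouse 7 and 0.0499 without IF mouse 14.

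Col13a1, a transmembrane collagen of sites where cells hold to the matrix, was at 1.14 to 4.47 CPM (median 3.35) in AL and 6.25 to 14.7 CPM (median 9.63) in IF. Every IF mouse lay above every AL mouse, and the log2 fold change was 1.501 ± 0.22 (log2, SE, adjusted p = 4.80e-06). Col7a1, the collagen of anchoring fibrils, was at 2.27 to 4.13 CPM (median 3.55) in AL and 4.23 to 10.7 CPM (median 7.31) in IF. These groups did not overlap either, and the log2 fold change was 1.03 ± 0.19 (log2, SE, adjusted p = 9.33e-05). Col25a1, a transmembrane collagen of neurons, had a mean of 0.813 CPM in AL and 0.265 CPM in IF and fell by 1.65 on the log2 scale (SE 0.58), a call lost with the erythrocyte score as covariate. The 5 FACIT collagens tested had a median log2 fold change of 0.04.

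Of 16 synthesis enzymes and chaperones tested in male liver, 4 rose (P4ha1, P4ha2, P3h4 and Mia3), against 23.5% of all genes, and 2 fell (Serpinh1 and Ppib), against 21.1%, shares near or below those of all genes. P4ha2, a prolyl hydroxylase of the chains, was at 4.38 to 7.44 CPM (median 6.497) in AL and 9.41 to 16.7 CPM (median 12.9) in IF, with no overlap and a log2 fold change of 1.03 ± 0.16 (log2, SE, adjusted p = 1.09e-05). P4ha1 had 0.42 ± 0.15 (log2, SE, adjusted p = 0.0234). Serpinh1, the chaperone that binds procollagen, was at 14.98 to 27.9 CPM (median 21.7) in AL and 10.3 to 24.1 CPM (median 15.1) in IF. It thus moved against P4ha2, with a log2 fold change of -0.55 ± 0.16 (log2, SE, adjusted p = 0.00684), and Plod2, a lysyl hydroxylase, did not pass the test (0.27 ± 0.34). Among 10 genes of processing and crosslinking, Loxl3 and Adamts14 rose and Lox (-2.04 ± 0.64) and Loxl4 (-2.38 ± 0.51) fell on the log2 scale. Of 10 degradation genes 5 rose (Timp2, Timp3, Ctsk, Mrc2 and Pepd). The degradation list, here and below, also holds the Timp genes, which encode inhibitors of breakdown, so its counts have no single meaning. Mmp14, Mmp2, Mmp9 and Timp1 did not pass, with log2 fold changes of -0.28 ± 0.12, 0.68 ± 0.61, 0.47 ± 0.54 and 1.06 ± 0.64.

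The collagen receptors Ddr1 (1.18 ± 0.28) and Ddr2 (0.82 ± 0.29) rose on the log2 scale, 2 of 8 tested, a share near the 23.5% of all genes that rose. In the TGF-beta pathway, which drives matrix synthesis in fibroblasts, 8 of 12 genes rose and 1, Smad3, fell, where 21.1% of all genes fell. Ccn2, a matricellular target of that pathway, was at 0.827 to 4.33 CPM (median 2.36) in AL and 4.704 to 20.2 CPM (median 10.8) in IF, without overlap, and rose by 2.20 ± 0.30 (log2, SE, adjusted p = 4.52e-06). Tgfb1 itself rose by 0.42 ± 0.14 (log2, SE, adjusted p = 0.0179). Of 17 other matrix genes 9 rose and 1, Nid2, fell, beside the same shares. Postn rose by 0.83 ± 0.20 (log2, SE, adjusted p = 0.00186), while Fn1 (0.06 ± 0.10) and Sparc (0.05 ± 0.13) did not pass.

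Some markers of several cell types also passed the test in male liver, and apart from the erythrocyte genes, which were fitted as a covariate, their part in the result was not tested. The counts below stand beside 23.5% of all genes that rose and 21.1% that fell, and several are near these shares. Of 5 fibroblast markers tested out of 6, 4 rose, and the summed markers were at 17.1 to 29.02 CPM (median 25.6) in AL and 38.6 to 99.5 CPM (median 50.1) in IF, with Gsn the most abundant and none at 0. Of 6 stellate cell markers 2 rose (Hand2 and Pth1r) and 1 fell (Ngfr), with sums of 52.4 to 71.2 CPM (median 59.8) in AL and 77.4 to 116 CPM (median 88.3) in IF, led by Reln. Of 6 endothelial markers 3 rose (Kdr, Tek and Emcn), with sums of 50.98 to 72.2 CPM (median 52.9) in AL and 77.8 to 135 CPM (median 91.3) in IF, led by Kdr. The fibroblast, stellate and endothelial sums did not overlap between the diets, and none of these lists had a marker at 0. Of 5 macrophage markers 2 rose (C1qa and Mrc1), with sums of 66.3 to 104 CPM (median 79.6) in AL and 93.6 to 286 CPM (median 109) in IF, led by C1qa in IF. Of 5 erythrocyte genes 3 rose (Hba-a1, Hbb-bs and Hbb-bt), with sums of 362 to 956 CPM (median 569) in AL and 667 to 6879 CPM (median 2070.4) in IF, led by Hba-a1, whose highest library was that of IF mouse 9. Of 5 hepatocyte markers 1 rose (Cyp2e1) and 1 fell (Apoa1), and they summed to 45689.5 to 72836 CPM (median 51456) in AL and 42966 to 66236 CPM (median 54714) in IF, led by Alb, which overlapped. In the other lists Syt1, Fmod, Kcnj8 and Prx rose and Slc47a1, Cfd and Ncmap fell. With the erythrocyte score as covariate 7 of the 12 collagen genes kept their call and no other gained one.

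In the liver of females edgeR called 0 of 28 collagen genes tested, as it called 0% of all genes tested. At an unadjusted p under 0.05 there was 1, Col12a1, against 5.77% of all genes, and DESeq2 called 0. The FACIT chain Col12a1 was at 1.37 to 4.32 CPM (median 2.597) in AL and 0.615 to 1.87 CPM (median 1.44) in IF, which overlapped, and had a log2 fold change of -0.88 ± 0.28 (log2, SE, adjusted p = 0.785). Col15a1 was at 6.31 to 12.2 CPM (median 8.73) in AL and 3.03 to 11.2 CPM (median 5.93) in IF, with a log2 fold change of -0.45 ± 0.23. Col18a1 was at 662 to 943 CPM (median 771) in AL and 603 to 788 CPM (median 715) in IF, with a log2 fold change of -0.12 ± 0.12. The 7 chains of collagens I, III, IV and VI named in every tissue had log2 fold changes in females from -0.05 to 0.53.

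The difference between the sexes in the liver response was tested itself, as the female change minus the male change. Of 33 collagen genes tested, 6 differed, against 23.7% of all genes. The share is near that of all genes. The 2 positive differences were Col15a1, 1.92 ± 0.31 (log2, SE, adjusted p = 1.44e-05), and Col4a1, 0.67 ± 0.25 (log2, SE, adjusted p = 0.0493). The 4 negative differences were Col13a1, -1.92 ± 0.36 (log2, SE, adjusted p = 1.19e-04), Col18a1, -0.66 ± 0.18 (log2, SE, adjusted p = 0.00674), Col12a1, -1.22 ± 0.37 (log2, SE, adjusted p = 0.0149), and Col11a2, -0.87 ± 0.31 (log2, SE, adjusted p = 0.0362). Col13a1, which rose in males, was at 2.09 to 5.58 CPM (median 2.95) in AL and 0.512 to 3.799 CPM (median 2.39) in IF females. The sexes also differed under AL, in a comparison added after the levels were seen: 6 of 33 genes differed, against 20% of all genes in either direction, and all 6 were lower in females, as were 1694 of the 17658 genes tested. Those were Col5a3, Col27a1, Col4a1, Col4a2, Col7a1 and Col11a2. Col5a3 was at 20.8 to 31.7 CPM (median 26.7) in AL females, far below every AL male, with a log2 difference of -3.79 ± 0.23 (log2, SE, adjusted p = 3.87e-15). Col27a1 was at 38.01 to 162 CPM (median 49.3) in AL females and differed by -2.01 ± 0.29 (log2, SE, adjusted p = 2.76e-06).

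**Figure D2:**
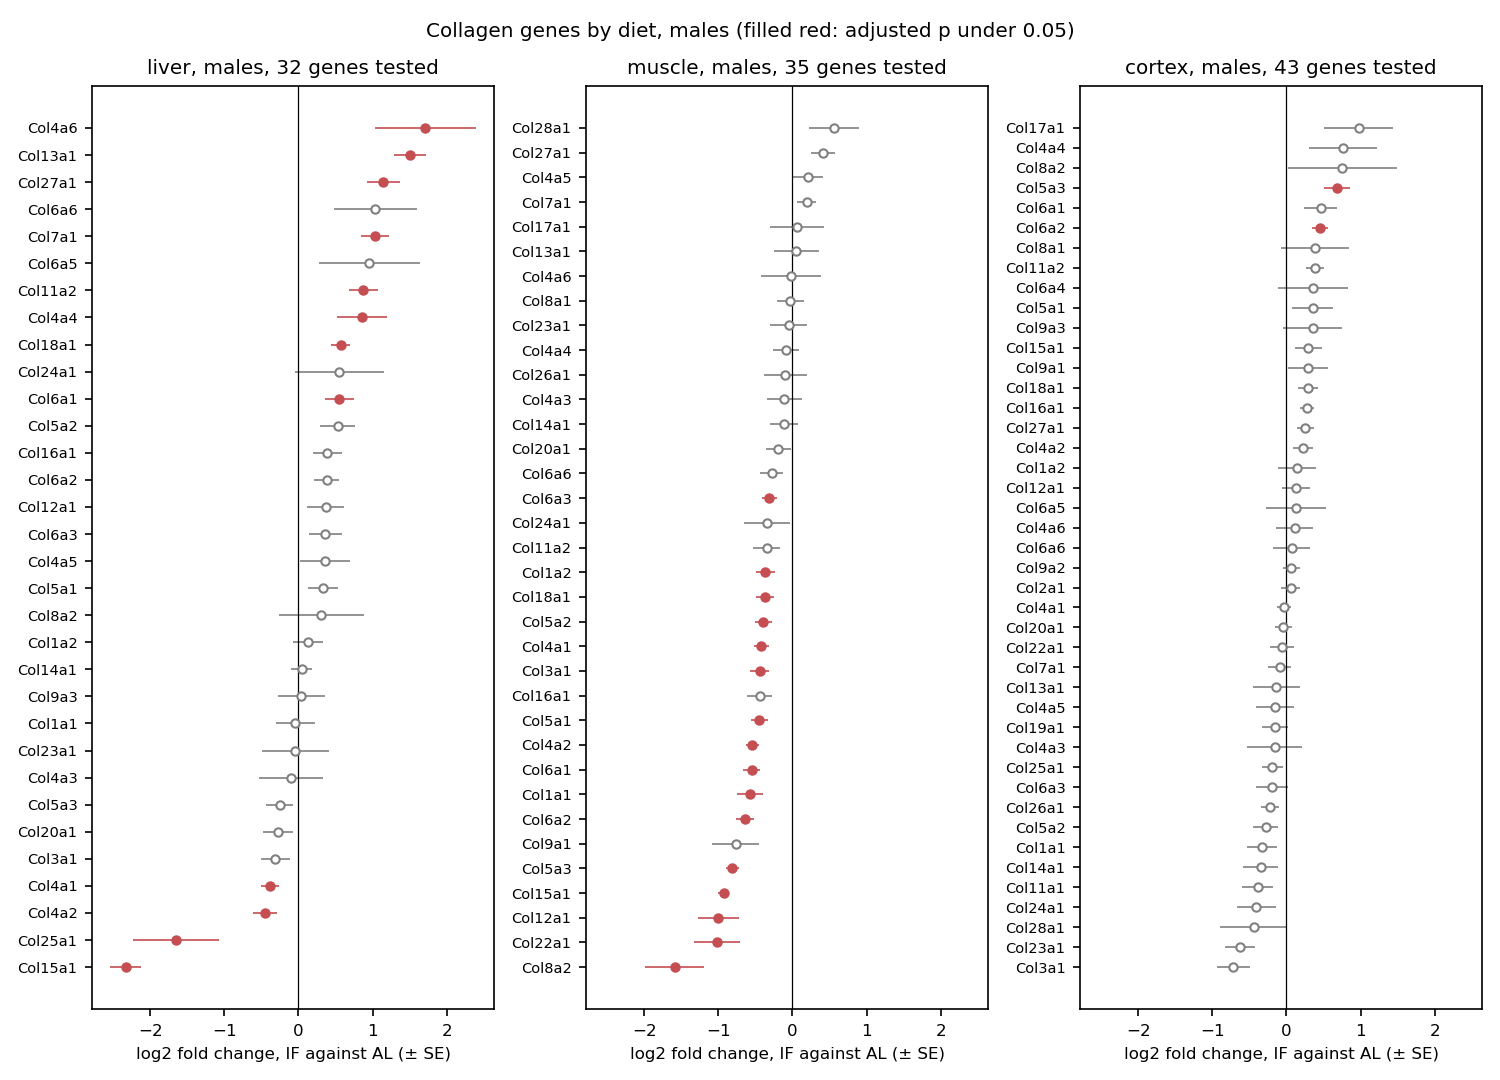
Log2 fold change of IF against AL in males (horizontal axis, points with SE) for each collagen gene tested in liver, muscle and cortex, ordered within each panel (vertical axis), where filled red points passed an adjusted p of 0.05. All 16 called genes of muscle lie left of 0, while liver has 8 called to the right and 4 to the left and cortex has 2 to the right.

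In the muscle of males, many collagens fell under IF, though not most genes of every role. Those that fell were 6 of 9 fibrillar, 3 of 4 collagen VI and 2 of 2 multiplexin genes tested. They were 2 of 6 collagen IV, 2 of 6 FACIT, 1 of 5 network and other and 0 of 3 transmembrane genes. Of 35 tested, 16 fell, against 11.6% of all 15025 genes tested. By edgeR 0 rose, against 11.5% of all genes, with 1 (Col27a1) at an unadjusted p under 0.05 and 0 by DESeq2. The median log2 fold change of the 35 was -0.35, against 0.01 over all genes tested, and 29 of the 35 were below 0. The summed collagens were at 597 to 894 CPM (median 742) in AL and 478 to 729 CPM (median 572) in IF. These sums overlapped, and IF mouse 10 was the highest of its group.

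Of 9 fibrillar genes tested 6 fell, against 11.6% of all genes: Col1a1, Col1a2, Col3a1, Col5a1, Col5a2 and Col5a3. Col5a3 was at 33.1 to 48.7 CPM (median 40.6) in AL and 19.6 to 30.1 CPM (median 25.1) in IF. Every IF mouse lay below every AL mouse, and the log2 fold change was -0.81 ± 0.09 (log2, SE, adjusted p = 1.36e-06). The chains of collagen I, the main fibre of tendon and muscle sheaths, had smaller and less steady changes. Col1a1 was at 38.6 to 65.1 CPM (median 50.3) in AL and 23.1 to 56.7 CPM (median 33.2) in IF, with a log2 fold change of -0.58 ± 0.17 (log2, SE, adjusted p = 0.0256), which became -0.51 with an adjusted p of 0.0546 without AL mouse 3. Col1a2 was at 68.3 to 113 CPM (median 89.5) in AL and 49.5 to 102 CPM (median 68.3) in IF, with a log2 fold change of -0.37 ± 0.13 (log2, SE, adjusted p = 0.0483). It lost its call without any one of 11 libraries, those of AL mice 1, 3, 4, 5, 7 and 8 and IF mice 9, 11, 12, 13 and 15, with values from -0.38 to -0.30 and an adjusted p of at most 0.1004. Col3a1 was at 78.9 to 137 CPM (median 103) in AL and 57.7 to 113 CPM (median 75.99) in IF, with a log2 fold change of -0.44 ± 0.13 (log2, SE, adjusted p = 0.0199). All of these overlapped between the diets except Col5a3. In 1 fit over all 95 libraries Col1a1, Col1a2 and Col3a1 were not called (adjusted p = 0.207, 0.363 and 0.258), nor were they without a filter on low counts (adjusted p = 0.0665, 0.123 and 0.0689). Their log2 fold changes were -0.58, -0.37 and -0.44 in the 1 fit and -0.57, -0.36 and -0.44 without the filter, near those reported. With the replicate block Col1a1 and Col1a2 also lost their calls, at -0.62 and -0.39 (adjusted p = 0.0698 and 0.0946). Col1a2 lost it as well with the erythrocyte score as covariate, at -0.36 (adjusted p = 0.0674). These values too are near those reported.

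Of the 6 collagen IV genes 2 fell, where 11.6% of all genes fell. Col4a2 was at 78.3 to 116 CPM (median 96.9) in AL and 56.05 to 97.7 CPM (median 66.2) in IF, with a log2 fold change of -0.54 ± 0.09 (log2, SE, adjusted p = 1.75e-04). Col4a1 was at 58.05 to 101 CPM (median 78.97) in AL and 55.8 to 92.3 CPM (median 59.7) in IF, with a log2 fold change of -0.42 ± 0.10 (log2, SE, adjusted p = 0.00424). The groups overlapped for both, and IF mouse 12 was the highest of its group for both, at 92.3 CPM of Col4a1. Of 4 collagen VI genes tested 3 fell, beside the same share, Col6a1, Col6a2 and Col6a3, the chains that join into 1 filament. Col6a1 was at 39.2 to 68.9 CPM (median 55.1) in AL and 28.8 to 51.4 CPM (median 38.96) in IF, with a log2 fold change of -0.55 ± 0.11 (log2, SE, adjusted p = 0.00182). Col6a2 was at 44.8 to 83.4 CPM (median 62.2) in AL and 33.8 to 58.7 CPM (median 41.2) in IF, with a log2 fold change of -0.64 ± 0.12 (log2, SE, adjusted p = 0.00122). For both, all 8 IF mice lay below the AL median. Col6a3 differed by -0.31 ± 0.10 (log2, SE, adjusted p = 0.0257).

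Both multiplexins fell in male muscle, where 11.6% of all genes fell. Col15a1, which lies in the basement membrane zone of muscle fibres and capillaries, was at 20.7 to 28.9 CPM (median 24.6) in AL and 12.2 to 16.6 CPM (median 12.9) in IF. The groups did not overlap, and the log2 fold change was -0.93 ± 0.08 (log2, SE, adjusted p = 6.04e-08). Col18a1 fell by 0.37 on the log2 scale (SE 0.12, adjusted p = 0.03003). Of 6 FACIT genes tested 2 fell, beside that share, Col12a1 (-1.003 ± 0.28) and Col22a1 (-1.02 ± 0.31), the latter known from the junction of muscle and tendon. Col22a1 was at 5.802 to 15.8 CPM (median 9.897) in AL and 2.38 to 9.32 CPM (median 4.19) in IF, with all 8 IF mice below the AL median. Col8a2 also fell, with a change of -1.59 ± 0.40 on the log2 scale at a mean below 1 CPM in both diets. The 3 transmembrane collagens tested had a median log2 fold change of 0.05. The count of 16 became 8 in 1 fit over all 95 libraries, and those 8 were among the 16.

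Of 16 genes of collagen synthesis tested in male muscle 5 fell (Serpinh1, P4ha2, Plod1, P3h3 and Ppib), against 11.6% of all genes, and the other 11 did not pass. Serpinh1 was at 57.4 to 116 CPM (median 88.8) in AL and 37.1 to 76.7 CPM (median 44.6) in IF, with all 8 IF mice below the AL median and a log2 fold change of -0.83 ± 0.16 (log2, SE, adjusted p = 0.00134). P4ha2 was at 29.9 to 39.9 CPM (median 32.9) in AL and 24.9 to 26.6 CPM (median 25.5) in IF, without overlap, with a log2 fold change of -0.49 ± 0.06 (log2, SE, adjusted p = 4.33e-06). P4ha1 and Plod2 did not pass (-0.33 ± 0.13 and 0.70 ± 0.27). Of 9 processing genes 5 fell (Pcolce, Adamts2, Bmp1, Loxl1 and Loxl2) and 1 rose, the crosslinking enzyme Lox at 0.56 ± 0.18 (log2, SE, adjusted p = 0.0285), where 11.5% of all genes rose. Of 10 degradation genes 3 fell (Mmp14, Mrc2 and Timp2) and 2 rose (Timp4 and Pepd). Mmp14 differed by -0.37 ± 0.09 (log2, SE, adjusted p = 0.00552), and Mmp2 (-0.06 ± 0.21) and Mmp9 (-0.73 ± 0.29) did not pass. The receptor Ddr1, 1 of 7 tested, fell without overlap, from 19.5 to 27.7 CPM (median 23.8) to 8.62 to 18.4 CPM (median 15.5), a log2 fold change of -0.75 ± 0.11 (log2, SE, adjusted p = 8.66e-05), and Ddr2 did not pass (0.13 ± 0.15). Of the TGF-beta pathway, Tgfb1 (-0.21 ± 0.20) and Ccn2 (0.17 ± 0.21) did not pass. Of 17 other matrix genes 6 fell (Hspg2, Fbn1, Fmod, Lama2, Lamc1 and Bgn) and Postn rose by 1.11 ± 0.24 (log2, SE, adjusted p = 0.00311), while Sparc (-0.12 ± 0.12) and Fn1 (-0.31 ± 0.19) did not pass.

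Some tendon markers fell and some fat markers rose in male muscle, beside 11.5% of all genes that rose and 11.6% that fell. Apart from the erythrocyte genes, the part of the lists below in the result was not tested. Of 5 tenocyte markers 3 fell (Tnmd, Scx and Fmod), and their sums were 59.1 to 127 CPM (median 80.1) in AL and 24.5 to 60.5 CPM (median 46.1) in IF, led by Thbs4. Of 5 adipocyte markers 4 rose (Adipoq, Plin1, Cfd and Cidec), with sums of 30.1 to 331 CPM (median 93.2) in AL and 112 to 1860.0 CPM (median 714) in IF, led by Cfd. Both lists overlapped between the diets and had no marker at 0. Of 2 hepatocyte markers tested out of 5, 1 rose (Cyp2e1), with sums of 1.57 to 11.9 CPM (median 4.76) in AL and 35.1 to 209.9 CPM (median 85.5) in IF, without overlap. The sums were nearly all Cyp2e1, with a mean of 95.4 CPM of 96.6 CPM in IF, while Alb was at most 3.31 CPM in muscle. They are thus values of 1 gene and not of the list. Of 3 stellate cell markers tested 1 rose (Pth1r). The 6 fibroblast markers, which include the abundant Gsn, had a median log2 fold change of -0.16, with sums of 631 to 1013 CPM (median 773) in AL and 504 to 1159 CPM (median 813) in IF. Of 6 endothelial markers 1 (Kdr) fell, and of 5 pericyte markers 1 (Kcnj8) fell. Of 5 macrophage markers 1 (Csf1r) fell, and of 5 myofibre markers 1 (Ckm) fell. The 5 Schwann cell markers had a median log2 fold change of 0.14, with sums of 45.3 to 201 CPM (median 81.4) in AL and 52.4 to 229 CPM (median 107) in IF. The 5 erythrocyte genes had a median log2 fold change of 0.03.

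In the muscle of females edgeR called 0 of 38 collagen genes tested, against 0.00653% of all genes. At an unadjusted p under 0.05 there were 5, Col20a1, Col5a2, Col4a1, Col18a1 and Col12a1, against 10.7% of all genes, and DESeq2 called 0. The median log2 fold change of the 38 was -0.25, against -0.02 over all genes tested, and 35 were below 0. Summed collagens were at 554 to 783 CPM (median 634) in AL and 385 to 639.8 CPM (median 546) in IF. These sums overlapped, with IF mouse 40 the lowest. The 6 endothelial markers, led by Cdh5, summed to 129.5 to 213 CPM (median 164) in AL and 77.6 to 149 CPM (median 122) in IF, and their log2 fold changes had a median of -0.42. The 5 tenocyte markers, led by Thbs4, summed to 43.5 to 77.8 CPM (median 57.3) and 31.9 to 56.1 CPM (median 38.3), with a median of -0.44. No marker of these 2 lists passed the test or was at 0 in a whole group, both sums overlapped, and their part in the shift was not tested. Col4a1 was at 52.1 to 118 CPM (median 74.9) in AL and 40.9 to 70.995 CPM (median 56.7) in IF, with a log2 fold change of -0.40 ± 0.15 (log2, SE, adjusted p = 0.362). Col1a1 was at 34.8 to 93.3 CPM (median 49.8) in AL and 17.6 to 56.6 CPM (median 38.1) in IF, with a log2 fold change of -0.39 ± 0.23, and Col6a1 and Col6a2 lay at 0.03 ± 0.10 and 0.01 ± 0.10. All of these overlapped between the diets.

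The sexes differed in the muscle response for 4 of 40 collagen genes tested, against 14.2% of all genes, a share near that of all genes. The female change minus the male change was 0.76 ± 0.15 (log2, SE, adjusted p = 9.23e-04) for Col15a1, 0.67 ± 0.17 (log2, SE, adjusted p = 0.00619) for Col6a2, 0.60 ± 0.16 (log2, SE, adjusted p = 0.00902) for Col6a1 and 0.63 ± 0.19 (log2, SE, adjusted p = 0.0235) for Col5a3. Each of these fell in males. Col15a1 was at 18.1 to 31.9 CPM (median 23.5) in AL and 13.04 to 27.6 CPM (median 18.7) in IF females, which overlapped. Col5a3 lost this call without a filter on low counts (adjusted p = 0.0618). For Col1a1, Col1a2, Col3a1, Col4a1 and Col4a2 the difference did not pass the test. Under AL, 2 of 40 genes were higher in females (Col9a3 and Col8a1) and 10 were lower, against 38.4% of all genes in either direction. The lower ones were led by Col5a3, at 15.8 to 26.9 CPM (median 20.5) in AL females and -1.14 ± 0.14 (log2, SE, adjusted p = 8.89e-08) against AL males, and Col7a1, at 11.95 to 22.1 CPM (median 15.8) in females, 25.5 to 35.6 CPM (median 32.3) in males and -1.07 ± 0.14 (log2, SE, adjusted p = 6.59e-07). Neither gene overlapped between the sexes, and both were named after their values were seen.

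**Figure D3:**
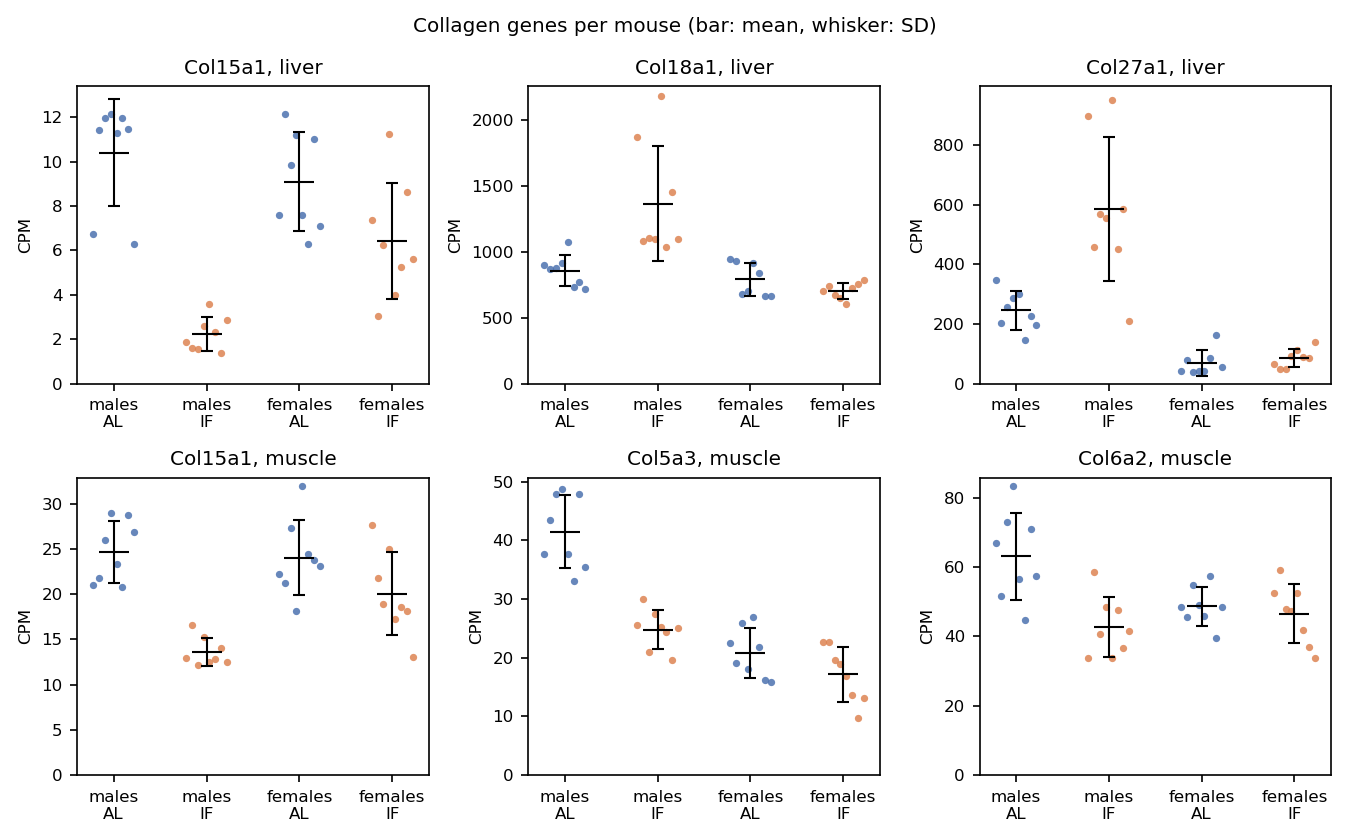
CPM (vertical axis) of Col15a1, Col18a1 and Col27a1 in liver and of Col15a1, Col5a3 and Col6a2 in muscle in each mouse of 4 groups of sex and diet (horizontal axis), where points are mice, bars are means and whiskers are SD. Male IF mice lie below all male AL mice for Col15a1 in both tissues and for Col5a3 in muscle.

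Since many chains fell together in male muscle, the 200 bases before the annotated start were searched for short promoter motifs on both strands, in build GRCm39. CCAAT was found in 13 of 44 collagen genes and 32.3% of 21770 protein-coding genes, GGGCGG in 21 of 44 and 34.8%, and TATAAA in 7 of 44 and 9.57%. A match is a description of the letters, not a binding site. The counts cover all 44 collagen genes, so they do not compare the chains that fell with other genes. The starts used for the windows are not always those of the genes in the count table. There Col15a1 starts at 47208161, and the window of Col18a1 (chr10:76949781-76949980) lies within its gene. The windows of Col15a1, at chr4:47207382-47207581 (forward strand), Col5a3, at chr9:20726419-20726618 (reverse strand), and Col6a2, at chr10:76459550-76459749 (reverse strand), are shown. Of the 6 genes named for male muscle by adjusted p, these 3 have windows without an annotated exon, while those of Col4a1, Col4a2 and Col6a1 hold exons. The window of Col4a1 holds CCAAT at 1 place and no other motif searched, and those of Col4a2 and Col6a1 hold none of the motifs. Col1a1 and Col3a1, fixed chains that also fell, have windows without an exon too and are not shown: that of Col1a1 holds CCAAT at 2 places and GGGCGG at 1, and that of Col3a1 holds neither and TATAAA at 1. Capitals mark CCAAT or GGGCGG on either strand.
Col15a1: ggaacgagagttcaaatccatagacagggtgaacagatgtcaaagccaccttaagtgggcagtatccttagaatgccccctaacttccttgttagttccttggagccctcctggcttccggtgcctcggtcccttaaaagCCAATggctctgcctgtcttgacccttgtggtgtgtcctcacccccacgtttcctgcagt
Col5a3: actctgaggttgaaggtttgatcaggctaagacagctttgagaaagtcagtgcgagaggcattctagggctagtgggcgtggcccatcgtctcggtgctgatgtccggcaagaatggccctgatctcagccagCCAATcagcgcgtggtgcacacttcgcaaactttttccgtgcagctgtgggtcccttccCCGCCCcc
Col6a2: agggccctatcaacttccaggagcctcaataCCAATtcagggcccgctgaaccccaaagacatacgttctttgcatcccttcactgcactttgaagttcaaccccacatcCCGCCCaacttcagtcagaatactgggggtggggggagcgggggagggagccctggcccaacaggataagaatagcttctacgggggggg

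In the cortex of males 2 of 43 collagen genes tested rose under IF, against 3.79% of all 18462 genes. By edgeR 0 fell, against 3.43%, with 2 (Col3a1 and Col23a1) at an unadjusted p under 0.05 and 2 by DESeq2. The shares are near those of all genes. Col6a2, whose product joins the collagen VI filament, was at 24.99 to 32.1 CPM (median 28.1) in AL and 25.3 to 49.7 CPM (median 37.5) in IF. All IF mice but 1 lay above the highest AL mouse, and the log2 fold change was 0.45 ± 0.11 (log2, SE, adjusted p = 0.0191). Col5a3 was at 3.21 to 6.06 CPM (median 5.28) in AL and 4.198 to 9.67 CPM (median 8.16) in IF. Of 8 IF mice 6 lay above the highest AL mouse, and the log2 fold change was 0.69 ± 0.17 (log2, SE, adjusted p = 0.0229). Neither call held in every alternative: without the libraries high in Ttr, an alternative chosen after seeing the data, the values were 0.39 (adjusted p = 0.208) and 0.59 (adjusted p = 0.233), and with AL mouse 1 kept both had an adjusted p of 0.0542. Both calls were also lost with the replicate block, at 0.41 for Col6a2 and 0.62 for Col5a3 (adjusted p = 0.0515 and 0.0747). The same held in 1 fit over all 95 libraries, at 0.42 and 0.66 (adjusted p = 0.278 and 0.0902). With AL mouse 1 kept the values were 0.40 and 0.64. Col5a3 also lost its call without AL mouse 2 (0.62, adjusted p = 0.0578). The same held without AL mouse 2 and IF mouse 10 together (0.67, adjusted p = 0.0561). These log2 fold changes stayed near the 0.45 and 0.69 reported. The count was 1 without AL mouse 2, 5 without AL mouse 7, 4 without IF mouse 12 and 4 without IF mouse 13.

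The more abundant chains of cortex overlapped between the diets. Col6a1 was at 61.6 to 158 CPM (median 112) in AL and 95.6 to 236 CPM (median 153) in IF, with a log2 fold change of 0.46 ± 0.22 (log2, SE, adjusted p = 0.2202). Col4a2 was at 60.3 to 95.98 CPM (median 68.7) in AL and 50.95 to 105 CPM (median 88.3) in IF (0.22 ± 0.13), and Col4a1 had -0.03 ± 0.10 on the log2 scale. Col11a2 was at 26.02 to 47.04 CPM (median 35.7) in AL and 34.2 to 56.2 CPM (median 48.9) in IF, with 0.38 ± 0.12 (log2, SE, adjusted p = 0.0536). Col3a1, at 1.61 to 2.94 CPM (median 1.87) in AL and 0.787 to 1.93 CPM (median 1.07) in IF, had -0.72 ± 0.23 (log2, SE, adjusted p = 0.0577). It passed with DESeq2 (adjusted p = 0.0219), without IF mouse 11 (0.0405) and without IF mouse 13 (0.0433). It also passed with the erythrocyte score as covariate (-0.72, adjusted p = 0.0456). With a choroid plexus score as covariate, chosen after seeing the data, it passed too (-0.75, adjusted p = 0.0467). Col1a1 and Col1a2 had -0.33 ± 0.21 and 0.14 ± 0.26. Col9a3 ranged widely within both diets, at 12.3 to 39.6 CPM (median 13.9) in AL and 12.9 to 55.4 CPM (median 15.1) in IF, with its highest levels in libraries high in Ttr.

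The partner counts in male cortex stand beside 3.79% of all genes that rose and 3.43% that fell. Among 18 synthesis genes Plod2 fell by 0.52 on the log2 scale (SE 0.13, adjusted p = 0.0237) and Colgalt1 rose. Of 12 processing genes 2 rose (Bmp1 and Pcolce2). Of 11 degradation genes Mmp14 fell, from 12.998 to 17.7 CPM (median 16.1) in AL to 8.39 to 12.8 CPM (median 9.99) in IF without overlap, a log2 fold change of -0.58 ± 0.12 (log2, SE, adjusted p = 0.00722), and Timp3 rose. In the TGF-beta pathway 1 of 12, Smad2, fell. Serpinh1 (-0.41 ± 0.14), P4ha1 (-0.04 ± 0.11), P4ha2 (0.13 ± 0.07), Lox (0.03 ± 0.33), Mmp2 (0.19 ± 0.30), Mmp9 (0.03 ± 0.21), Timp1 (-0.27 ± 0.29), Tgfb1 (-0.10 ± 0.12), Ccn2 (-0.02 ± 0.16), Ddr1 (0.01 ± 0.08), Ddr2 (-0.24 ± 0.19), Sparc (-0.03 ± 0.07), Fn1 (0.15 ± 0.12) and Postn (0.34 ± 0.36) did not pass on the log2 scale. Of 6 endothelial markers 1 (Cldn5) fell, with sums of 145 to 182 CPM (median 165) in AL and 109 to 156 CPM (median 123) in IF and none at 0. The 5 meningeal fibroblast markers had a median log2 fold change of -0.27, with sums of 21.6 to 53.2 CPM (median 27.3) in AL and 20.8 to 33.2 CPM (median 28.8) in IF, and the 5 pericyte markers had a median of 0.01. Of 4 fibroblast markers tested 1 (Gsn) rose, with sums of 68.4 to 90.4 CPM (median 84.95) in AL and 74.8 to 101 CPM (median 97.2) in IF and a median of 0.06, and of 4 Schwann cell markers 1 (Cdh19) rose, with a median of 0.37. The 5 tenocyte markers had a median of 0.36 and none passed. The part of these lists was not tested. Neuron, chondrocyte and cell cycle lists had medians of -0.003, -0.03 and 0.10. The 5 choroid plexus markers had a median log2 fold change of 0.61, with sums of 1.93 to 63.3 CPM (median 7.903) in AL, led by Kl, and 2.94 to 109.6 CPM (median 5.52) in IF, led by Clic6. Their part in the collagen values was not tested beyond the fit without the high libraries and the fit with a choroid plexus score as covariate. Both fits were chosen after seeing the data. In the latter Col6a2 and Col5a3 kept their calls and Col3a1 gained one.

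In the cortex of females edgeR called 0 of 43 collagen genes, against 0.0109% of all genes. At an unadjusted p under 0.05 there were 9, all higher in IF, against 11.2% of all genes, and DESeq2 called 1, Col6a2 (adjusted p = 0.0154). The median log2 fold change of the 43 was 0.23, against 0.00 over all genes tested, and 36 were above 0. Col6a2 was at 19.5 to 32.97 CPM (median 25.7) in AL and 27.2 to 40.1 CPM (median 35.1) in IF, with 7 of 8 IF mice above the highest AL mouse and a log2 fold change of 0.44 ± 0.10 (log2, SE, adjusted p = 0.195). Col6a1 was at 62.1 to 139.7 CPM (median 84.6) in AL and 86.3 to 143 CPM (median 125) in IF, with 0.43 ± 0.15 (log2, SE, adjusted p = 0.355). Without AL mouse 26, the highest of its group in summed collagens, 3 genes were called: Col6a2 (adjusted p = 0.0287), Col6a1 (adjusted p = 0.0434) and Col4a2 (adjusted p = 0.0468). Summed collagens were at 393 to 640.2 CPM (median 481) in AL and 436 to 661 CPM (median 600.4) in IF. The choroid plexus markers summed to 2.74 to 8.63 CPM (median 4.21) in AL and 1.61 to 115 CPM (median 3.68) in IF, led by Kl and none at 0. Their log2 fold changes had a median of 2.18, with IF mice 34 and 36 the highest, and none passed. In fits chosen after seeing the data Col6a2 was at 0.41 with a choroid plexus score as covariate and 0.41 without these libraries, and the part of the markers in the shift was otherwise not tested.

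For the difference between the sexes in the cortex response edgeR called 0 of 43 collagen genes, against 2.03% of all genes. At an unadjusted p under 0.05 there were 4 (Col11a2, Col14a1, Col20a1 and Col23a1), against 15.4% of all genes, and DESeq2 called 0. Under AL, 1 gene was higher in females and 1 was lower, against 12.6% of all genes in either direction. The higher one was Col26a1, with 0.38 ± 0.12 (log2, SE, adjusted p = 0.0311), and the lower one was Col4a1, with -0.35 ± 0.10 (log2, SE, adjusted p = 0.0184). Col4a1 was at 21.8 to 40.1 CPM (median 28.7) in AL females and 32.6 to 45.2 CPM (median 36.2) in AL males, which overlapped.

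Chains that join into 1 protein were compared per length within each mouse, as ratios of FPKM and with no test. The ratios depend on the deposited gene lengths. These are 6563 bases for Col1a1 and 12426 for Col1a2, and 4380 for Col6a1 and 8326 for Col6a2. The lengths of the transcripts expressed were not examined, so the ratios are not numbers of chains. Col1a1 to Col1a2 was 1.097 ± 0.0542 (SD, n = 8) in AL male muscle and 0.9399 ± 0.151 in IF, 1.37 ± 0.262 (n = 7) in AL male cortex and 0.965 ± 0.133 in IF, and 1.297 ± 0.439 in AL male liver and 1.08 ± 0.2798 in IF. Col4a1 to Col4a2 was 0.7396 ± 0.0624 in AL male muscle, 0.792 ± 0.144 in liver and 0.4601 ± 0.0572 in cortex, and in IF it was 0.808 ± 0.0712, 0.885 ± 0.274 and 0.385 ± 0.0524. Cortex thus held less Col4a1 per Col4a2 than the other tissues. Col6a1 to Col6a2 was 1.64 ± 0.0999 in AL male muscle and 7.64 ± 2.29 in cortex. Female means of Col1a1 to Col1a2 in AL and IF were 1.40 and 1.19 in muscle and 1.18 and 1.20 in cortex. They were 1.01 and 1.08 in liver. Female means of Col4a1 to Col4a2 were 0.867 and 0.786 in muscle, 0.764 and 0.877 in liver and 0.418 and 0.369 in cortex. From AL to IF the mean of Col1a1 to Col1a2 was lower in males and higher in females in cortex and liver. The mean of Col4a1 to Col4a2 in muscle was higher in males and lower in females. The female SDs of Col1a1 to Col1a2 in AL and IF were 0.267 and 0.323 in liver and 0.123 and 0.213 in cortex. The shifts in liver of both sexes and in female cortex lay within the SD. A difference between the sexes in these ratios was not tested.

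Some collagen genes share exon bases with other genes. In the annotation of the same build 27 of 44 overlap another gene in exons and 8 overlap a protein-coding one. Col4a1 and Col4a2, which lie head to head, share 311 bases, and Col18a1 shares 896 of its 7063 exon bases with Slc19a1 on the opposite strand. The libraries kept the strand, but the strand setting of the counting is not given in the sources used here. How reads in the shared bases were assigned is not given either.

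Every one of the 44 genes is accounted for. The filter on low counts passed 32 in male liver, 28 in female liver, 35 in male muscle, 38 in female muscle and 43 in cortex of either sex. In male liver the untested genes were Col10a1, Col11a1, Col17a1, Col19a1, Col22a1, Col26a1, Col28a1, Col2a1, Col6a4, Col8a1, Col9a1 and Col9a2. In male muscle they were Col10a1, Col11a1, Col19a1, Col25a1, Col2a1, Col6a4, Col6a5, Col9a2 and Col9a3. Female liver lacked Col4a6, Col6a5, Col6a6 and Col8a2 besides those of male liver. In female muscle Col10a1, Col19a1, Col25a1, Col2a1, Col6a4 and Col6a5 were untested, and in cortex Col10a1 was.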

How the data were processed

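Raw read counts per gene, as deposited, were made by the authors from poly-A RNA of liver, muscle and cortex with Hisat2 2.0.5 and featureCounts 1.5.0-p3 on GRCm39. CPM is the count over the library total, and FPKM divides it by the deposited gene length. IF and AL were compared per tissue and sex with edgeR 4.0.16 (R 4.3.3, TMM, robust quasi-likelihood test, filterByExpr with minimums of 10 and 15), with Benjamini-Hochberg adjustment over all genes tested and a threshold of 0.05. The interaction of sex and diet used both sexes, and tissues were compared in AL mice with the mouse as a term. Alternatives were DESeq2 1.42.0, RLE size factors, other filters, 1 fit over all libraries, a replicate block, an erythrocyte covariate, leaving out each mouse, leaving out AL mouse 2 and IF mouse 10 together, keeping AL mouse 1 in cortex, unadjusted p, no mouse term between tissues and TMM-scaled totals. Fits on choroid plexus signal and the comparison of the sexes under AL were chosen after seeing the data. Named genes are up to 6 called per diet comparison by adjusted p with a mean of at least 1 CPM, the 5 highest by FPKM per tissue, up to 4 per interaction, 7 fixed chains and 16 fixed partners. Genes named outside that rule were chosen after their values were seen. The count of the TGF-beta list in muscle is not reported here. The members and lists were chosen with earlier results of these data known. Promoter sequence came from the GRCm39 genome.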

Additional observations from a re-analysis of the deposited data

Results flagged for a closer look

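Single mice stood far from the others of their group in 2 of 40 groups of named collagen genes tested, and chance gives about 1 in 20 groups. In the liver of AL males Col7a1 was lowest in mouse 2 at 2.27 CPM, with the next mouse at 3.27 CPM. In the muscle of IF males Col4a1 was highest in mouse 12 at 92.3 CPM, with the next mouse at 69.6 CPM. Groups outside these 2 can hold such a mouse as well. In the liver of AL females Col27a1 was highest in mouse 31 at 162 CPM, with the next mouse at 86.6 CPM.

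The response to IF differed between the sexes by the test of the difference itself, given as the female minus the male log2 fold change. In liver the difference was 1.92 for Col15a1, -1.92 for Col13a1, -1.22 for Col12a1, -0.87 for Col11a2, 0.67 for Col4a1 and -0.66 for Col18a1. In muscle it was 0.76 for Col15a1, 0.67 for Col6a2, 0.63 for Col5a3 and 0.60 for Col6a1.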

How the results depend on the processing

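Of the counts of called collagen genes under alternatives, 98 stayed within 1.5 times the reported count and 7 were lower and 7 higher by more. Of the named genes' values 431 kept their direction and side of the threshold, 22 lost the call and 4 gained one. In male liver the count was 7 with the erythrocyte score as covariate, against 12. In male muscle it was 8 in 1 fit over all 95 libraries, against 16. In male cortex, against 2, it was 6 with DESeq2, 4 with the erythrocyte score, 1 without AL mouse 2 and IF mouse 10, 0 with AL mouse 1 kept, 0 without the libraries high in Ttr (chosen after seeing the data), 0 in 1 fit over all 95 libraries and 8 at an unadjusted p under 0.05. At that unadjusted p the counts in females were 1 in liver, 5 in muscle and 9 in cortex, against 0 by edgeR, and DESeq2 gave 1 in female cortex. The cause was not tested.

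Without each mouse in turn the count was 10 to 12 in male liver, 12 to 17 in male muscle, 1 to 5 in male cortex, 0 to 0 in female liver, 0 to 0 in female muscle and 0 to 3 in female cortex, with the value of 3 without AL mouse 26. Of the named genes' values in these fits 783 kept their side of the threshold, 17 lost their call and 8 gained one. With the replicate block the count was 12 in male liver, 13 in male muscle and 0 in male cortex. Replicate numbers of AL and IF belong to different mice: correlations between libraries of 1 number ran from -0.262 to 0.457, and at most 2 of 8 libraries matched best with their own number.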
